A study of Homo sapiens with 9 samples.

Results

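The genes described here were switched on from near silence in tumours carrying TAZ-4SA. A gene was included when its deposited value, the log2 of reads scaled to library size as CPM, was below 1 in each of the 3 empty vector (EV) tumours and at least 3 in each of the 6 TAZ-4SA tumours. These limits correspond to 1.85 CPM and 7.86 CPM after the small constant that the authors added before taking logs is removed. Of 18364 genes in the table, 3554 lay under the limit in every EV tumour, and 46 of these, or 1.29%, also reached the minimum in every TAZ-4SA tumour. Of the 46 genes, 7 (ANKRD1, MME, NPPB, AOX1, IL7R, INHBA and UCA1) were set aside by the rule, which left 39. CPA4, KRT80 and KRT81, also named as exceptions, did not meet the EV limit. The choice of genes used the TAZ-4SA and EV values themselves, so the difference between the groups is a description here and carries no test.

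All 9 tumours grew from LN229 cells, a long-established human glioblastoma line, injected into the brains of nude mice and collected at the terminal stage. The group called TAZ-4SA (6 tumours, numbered 1 to 6) came from LN229-4SA cells and the group called EV (3 tumours, numbered 1 to 3) from LN229-EV cells. The labels do not say whether each line is a clone, how the construct was delivered, or which animal carried which tumour, and nude mice keep their own brain, vessel and innate immune cells around the graft. P-values below therefore measure the spread between these samples, which may in part be technical. In bulk tumour RNA, a larger share of expressing cells and more RNA per cell cannot be told apart.

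TAZ is a transcriptional co-activator at the end of the Hippo pathway. Kinases of that pathway phosphorylate TAZ on serines and keep it out of the nucleus, and forms with serine-to-alanine changes escape this control. TAZ has no DNA-binding domain of its own and reaches DNA through TEAD factors, which bind GGAATG, often close to AP-1 factors, which bind TGANTCA. Secreted ligands, matrix proteins and regulators of the actin cytoskeleton are among its established target genes.

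WWTR1, the gene of TAZ, had a lowest, median and highest level of 218, 333 and 449 CPM in TAZ-4SA, against 123, 119.5 and 116 CPM in EV, with reads of an introduced copy and of the resident gene counted together. The deposited values could be converted back to whole reads, which sets how firmly near silence can be read. Totals ran from 3144861 to 31468135 reads in the TAZ-4SA tumours, lowest in tumours 5 and 6, and from 17314672 to 21576264 in the EV tumours. Genes without a read numbered 2990 to 7365 per TAZ-4SA library, most of all in tumours 2, 3 and 4, and 505 to 622 per EV library. The switched-on genes were higher in the group whose libraries detected fewer genes, and the part of this detection in their levels was not tested. Summed over the 3 EV tumours, a switched-on gene had between 0 and 83 reads, with a median of 38. LINC03033 had 0, and SPANXB1, MARCHF4 and PSG4 had between 1 and 3. In the TAZ-4SA tumours no value of the 39 genes rested on fewer than 29 reads, and 23 genes had fewer than 100 reads in at least 1 of these tumours.

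Of the 39 genes, 33 were protein-coding and 6 were long non-coding RNAs. The protein-coding share was 84.6%, against 59.2% of the 3554 genes under the EV limit. The 39 genes also had to reach the TAZ-4SA minimum and carry a gene symbol, and no set of like level was compared. Over the 38 genes described singly, mean levels in the TAZ-4SA tumours ran from 18.4 ± 8.398 CPM for CD24 to 229.9 ± 58.1 CPM for ALPK2, with a median over genes of 45.4 CPM (SD over n = 6 tumours, here and below). For the 34 of them with more than 3 EV reads, the ratio of the group means ran from 12.04 for CD24 to 732.5 for SLAMF7, with a median of 73.25. All 39 passed the limma test of TAZ-4SA against EV in the higher direction at an adjusted p of 0.05, where 9.02% of the 15578 genes tested did, 13.3% were called lower and 22.4% were called in either direction. The rule used that same contrast, so nothing is read from this count.

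**Figure D1:**
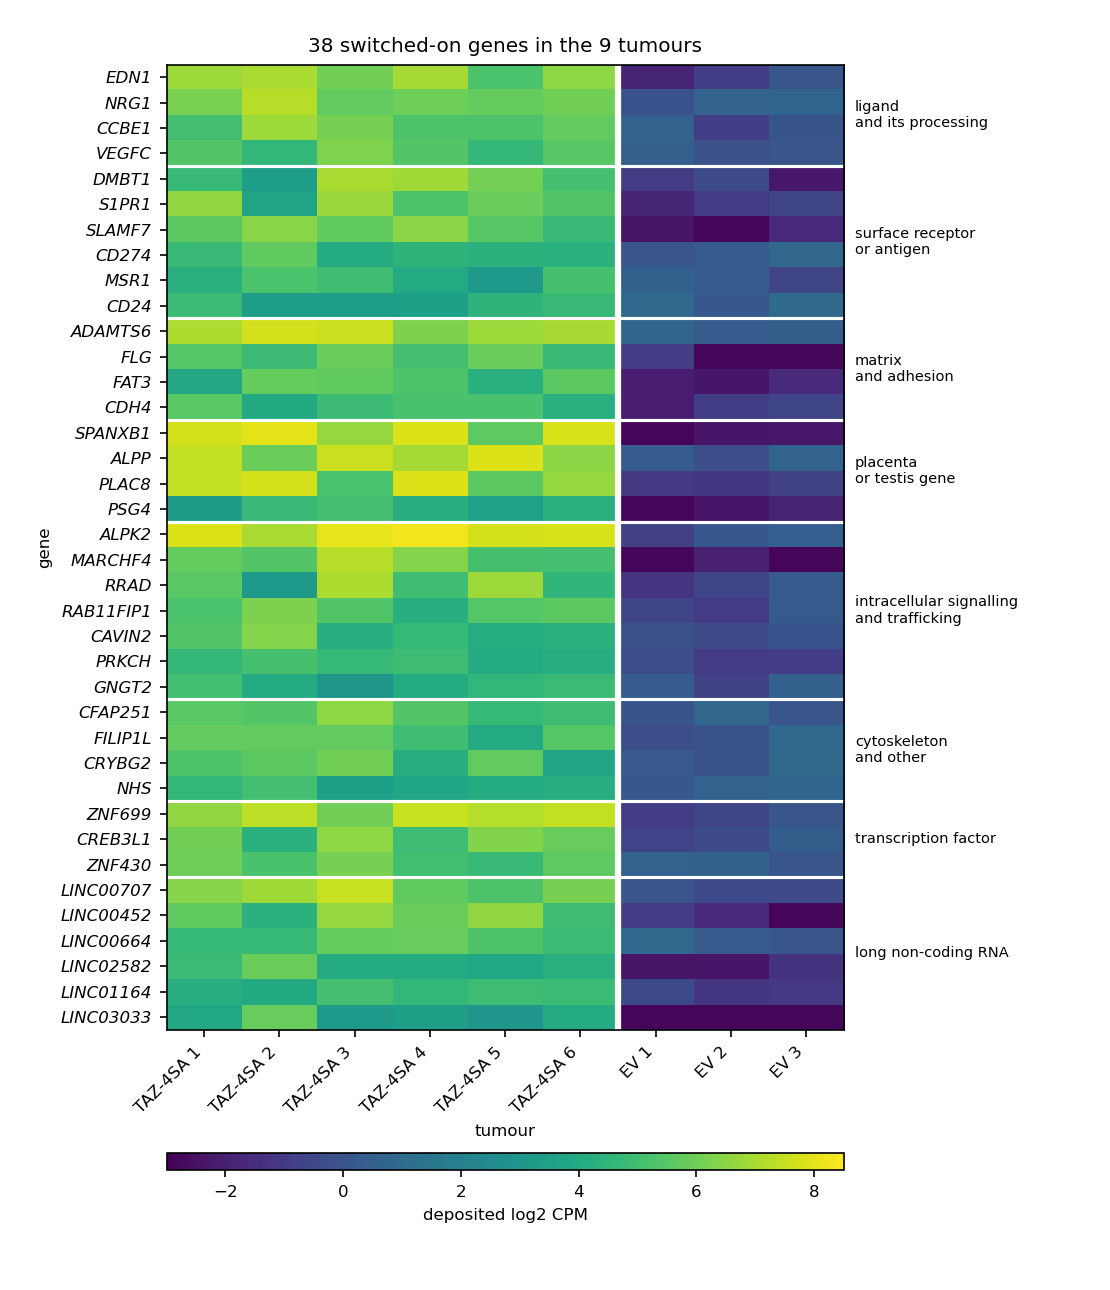
Deposited log2 CPM of 38 of the switched-on genes (rows, grouped by role) in the 6 TAZ-4SA and 3 EV tumours (columns), with colour standing for the value. Every gene is at least 3 in each TAZ-4SA tumour and below 1 in each EV tumour, as the rule requires, and levels within TAZ-4SA differ by gene and by tumour.

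**Figure D2:**
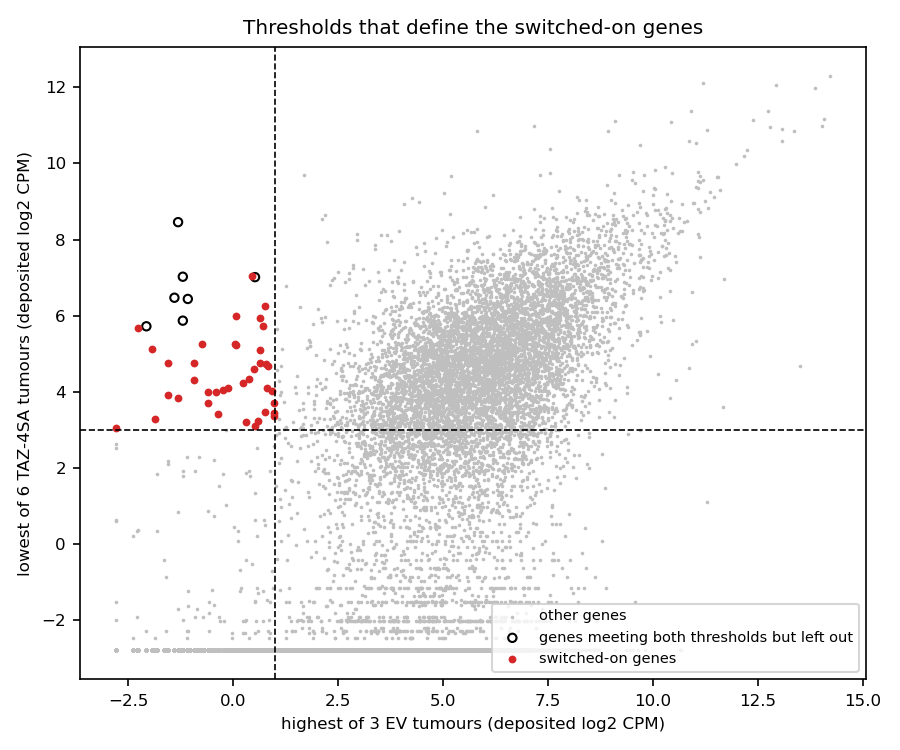
Each point is 1 gene, with its highest value among the 3 EV tumours on the horizontal axis and its lowest value among the 6 TAZ-4SA tumours on the vertical axis, both in deposited log2 CPM, and dashed lines at the limits of 1 and 3. The 39 switched-on genes (red) and the 7 genes set aside (open circles) fill the upper left corner.

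The limits cut through a continuous range. Just inside the EV limit stood CRYBG2 and CD24, each with a highest EV value of 0.96 on the log2 scale, and just outside it stood RAC2 at 1.04, RASGRF1 at 1.05 and LINC02709 at 1.10. Just inside the TAZ-4SA minimum stood LINC03033 at 3.05, GNGT2 at 3.11 and RRAD at 3.21, and just outside it stood RAB27B at 2.997, APCS at 2.65 and AMPD3 at 2.57. Of the 3554 genes under the EV limit, 2620 reached the minimum in no TAZ-4SA tumour, 606 in 1, 146 in 2, 67 in 3, 41 in 4 and 28 in 5. The 28 genes that missed it in a single tumour fell short in tumour 2 (8 genes), tumour 5 (7), tumour 3 (6), tumour 6 (4) and tumour 4 (3), and 8 of them had 0 reads there. KISS1, which encodes the kisspeptin peptide hormone, was one of them, with a median of 39.6 CPM over the 6 tumours and 0.404 CPM in tumour 2. The leptin receptor gene LEPR was another, with a median of 17.8 CPM and 0 reads in tumour 3.

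Promoter sequence was compared first, because TAZ reaches DNA only through other factors. RefSeq promoter windows (GRCh38.p14, from 250 bases before to 50 bases after a gene's start) were given for 27 of the 39 genes. The TEAD motif GGAATG, searched on both strands, lay in 5 of the 27 windows (18.5%), against 15.5% of 2129 windows of genes under the EV limit that did not meet the rule, 11.5% of 13793 windows of all genes in the table and 14% of all 27305 windows. The AP-1 motif TGANTCA lay in 1 (3.70%), against 8.31%, 5.15% and 7.76% of those sets. These shares are descriptions of short windows, and a match is not evidence of binding. The 250 upstream bases of the 5 genes with the TEAD motif are shown because TEAD factors are the known route of TAZ to DNA. Capitals mark the motifs, 5′ to 3′ on the gene's own strand.
FLG (chr1:152325240-152325489, minus strand): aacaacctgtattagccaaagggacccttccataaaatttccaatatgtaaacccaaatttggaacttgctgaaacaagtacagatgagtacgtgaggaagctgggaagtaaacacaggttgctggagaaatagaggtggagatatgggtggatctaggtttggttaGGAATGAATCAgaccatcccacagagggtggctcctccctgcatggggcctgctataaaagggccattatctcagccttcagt
CAVIN2 (chr2:191847089-191847338, minus strand): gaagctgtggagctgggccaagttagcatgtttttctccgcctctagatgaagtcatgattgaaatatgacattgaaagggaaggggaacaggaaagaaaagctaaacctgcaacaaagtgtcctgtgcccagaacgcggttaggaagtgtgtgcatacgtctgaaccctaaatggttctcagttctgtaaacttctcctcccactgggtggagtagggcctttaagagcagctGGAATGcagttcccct
ADAMTS6 (chr5:65481921-65482170, minus strand): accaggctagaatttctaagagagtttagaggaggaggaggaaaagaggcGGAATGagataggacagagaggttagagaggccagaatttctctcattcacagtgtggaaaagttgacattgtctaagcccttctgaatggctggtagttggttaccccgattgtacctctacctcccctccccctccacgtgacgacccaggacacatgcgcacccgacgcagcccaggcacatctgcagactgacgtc
CREB3L1 (chr11:46294909-46295158, plus strand): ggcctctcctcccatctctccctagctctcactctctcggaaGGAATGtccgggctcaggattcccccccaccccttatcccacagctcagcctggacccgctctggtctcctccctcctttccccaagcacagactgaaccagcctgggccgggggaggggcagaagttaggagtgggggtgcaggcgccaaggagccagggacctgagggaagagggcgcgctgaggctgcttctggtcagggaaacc
FILIP1L (chr3:99876174-99876423, minus strand): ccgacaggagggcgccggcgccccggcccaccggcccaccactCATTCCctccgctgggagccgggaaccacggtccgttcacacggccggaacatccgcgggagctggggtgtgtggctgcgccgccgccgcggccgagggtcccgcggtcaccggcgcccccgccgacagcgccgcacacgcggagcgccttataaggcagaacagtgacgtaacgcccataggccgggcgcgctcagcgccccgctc

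In the FLG window the TEAD and AP-1 motifs ran into each other, sharing 2 bases, at 83 and 79 bases before the start. Windows with both motifs made up 1.49% of all windows. In CAVIN2 the TEAD motif began 16 bases before the start, and in ADAMTS6 200 bases before it. The motif of FILIP1L was on the reverse strand and reads CATTCC here. The windows of CREB3L1 and FILIP1L lay before a start inside the gene's annotated span, not before its outermost start. The windows of FLG and LINC03033 each held a single CpG, while the median over the 27 windows was 12 CpG, against 10 among the other genes under the EV limit and 24 over the genes of the table. TATAAA lay in 2 windows (7.41%), those of FLG and DMBT1, against 13.3% of the other genes under the EV limit, 6.96% of the genes of the table and 12% of all windows. The cyclic AMP response motif TGACGTCA lay in 1 (3.70%), that of ADAMTS6, against 1.46%, 2.89% and 1.98% of those sets.

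Among secreted ligands, 3 genes and a factor that processes one of them were switched on. EDN1 (chromosome 6, 12230516 to 12297194, GRCh38) encodes endothelin, a peptide that constricts vessels. Its level ran from 37.5 CPM in tumour 5 through a median of 103 CPM to 132.5 CPM in tumour 2, against 0.141, 0.407 and 0.903 CPM in EV tumours 1 to 3. Its ratio of means was 195.1, and 344.5 without EV tumour 3. NRG1, the neuregulin that activates ERBB receptors, had a lowest, median and highest level of 53.1, 62.9 and 153 CPM, against 0.796, 1.45 and 1.48 CPM in EV. Tumour 2 held the highest NRG1 level, more than 2-fold above the next tumour. VEGFC, the growth factor of lymphatic vessels, stood at 24.2, 42.7 and 76.5 CPM, against 1.26, 0.756 and 0.903 CPM in EV. CCBE1, a secreted protein needed to convert pro-VEGF-C into its active form, stood at 34.02, 46.3 and 112 CPM, against 1.41, 0.407 and 0.838 CPM. The highest tumour differed between VEGFC and its processing factor: VEGFC was highest in tumour 3 and lowest in tumour 2, and CCBE1 was highest in tumour 2.

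Other ligand genes give the setting. In a list of cytokines and growth factors, 59 genes were tested. Without the 3 switched-on genes 12 of 56 rose and 6 fell (limma, adjusted over all genes), beside 9.02% and 13.3% of all genes tested. The median log2 fold change of the 56 was 0.19, beside -0.85 over all genes tested. The called genes with the highest TAZ-4SA level were the WNT inhibitor gene DKK1, which rose from 3.01 ± 1.14 to 209.5 ± 114 CPM, the PDGF family gene PDGFC, from 13.9 ± 1.09 to 207 ± 71.6 CPM, WNT5A, a WNT ligand, from 4.23 ± 0.822 to 177 ± 31.5 CPM, and BMP4, a bone morphogenetic protein, from 11.4 ± 1.86 to 166 ± 50.8 CPM. These genes were low but above the limit in EV. Without EV tumour 1, 2 or 3, only 3 ligand genes were called lower. IL6, under the EV limit, reached the minimum in 5 of 6 TAZ-4SA tumours and stood at 3.34 CPM in tumour 4.

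Surface receptors and antigens made up 6 of the genes. S1PR1 (chromosome 1, 101236899 to 101242313, GRCh38), a G protein-coupled receptor for sphingosine-1-phosphate, ran from 12.9 CPM in tumour 2 through a median of 49.3 to 111 CPM in tumour 3, against 0.141, 0.349 and 0.516 CPM in EV. SLAMF7, a SLAM-family receptor known from natural killer and plasma cells, had a lowest, median and highest level of 26.9, 49.8 and 91.8 CPM and only 4 reads over the EV tumours, at 0.0468, 0 and 0.193 CPM. Its ratio of 732.5 was 2505 without EV tumour 3. CD274, which encodes the immune checkpoint ligand PD-L1, stood at 16.96, 21.7 and 51.3 CPM, against 0.89, 1.105 and 1.61 CPM. Its level in tumour 2 was above the 5 others, which lay between 17.0 and 27.9 CPM. DMBT1, a secreted scavenger receptor protein first described as deleted in malignant brain tumours, varied most among the 6, from 10.6 CPM in tumour 2 to 131 CPM in tumour 3, against 0.375, 0.6396 and 0.0645 CPM in EV. Its ratio was 179.7, and 294.2 without EV tumour 2. MSR1, a macrophage scavenger receptor gene, stood at 9.24, 25.2 and 37.95 CPM, against 1.36, 1.105 and 0.516 CPM, and CD24, a small lipid-anchored surface glycoprotein, at 10.8, 16.5 and 28.2 CPM, against 1.78, 0.988 and 1.805 CPM.

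Because several of these genes are known from immune or vessel cells, human marker genes of such cell types were read beside them. The host is mouse, and whether mouse reads were set apart is not given. These values therefore do not measure the amount of host tissue. Of 11 microglia and macrophage markers 6 were in the table. Their summed level was 54.7 to 142 CPM in TAZ-4SA and 16.1 to 25.6 CPM in EV. CD68, a lysosomal gene, made up most of it and rose from 16.4 ± 5.51 to 88.2 ± 38.2 CPM. P2RY12, a microglial receptor gene, had 0 reads in every TAZ-4SA tumour, and PTPRC, TYROBP and ITGAM had a median of 0 over them, with highest values of 12.4, 4.89 and 21.8 CPM. Of 9 endothelial markers 8 were measured, with a summed level of 0.101 to 13.99 CPM in TAZ-4SA and 17.4 to 19.6 CPM in EV. PECAM1, CDH5 and KDR had a median of 0 over the TAZ-4SA tumours, and EMCN had 0 reads in all 6. The part of vessel cells in the EDN1, S1PR1 and CAVIN2 levels and that of macrophages in the MSR1 and SLAMF7 levels was not tested. Of 6 T and B cell markers and 5 erythroid markers 0 gave a value, and these cells were not analysed here. The glial markers NES and S100B fell, from 1324 ± 35.1 to 158 ± 60.5 CPM and from 208 ± 43.4 to 2.95 ± 4.43 CPM. The other 4 of the 6 glial markers tested, among them the vimentin gene VIM, were not called in the limma fit. With limma-voom 4 of the 6 were called lower, among them OLIG2 (limma-voom adjusted p = 0.00899) and SOX2 (limma-voom adjusted p = 0.0395). Summed over the 6, the level was 1875 to 3056 CPM in TAZ-4SA and 3253 to 3642 CPM in EV.

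Matrix and adhesion genes spanned a wide range of levels. ADAMTS6, a secreted metalloprotease gene, was among the highest, at 75.8, 132 and 208 CPM, against 1.55, 1.105 and 1.16 CPM in EV. FLG encodes filaggrin, a barrier protein of the skin, and ran from 27.2 CPM in tumour 6 to 59.5 CPM in tumour 3 with a median of 39.3. All 8 EV reads of FLG were in EV tumour 1, at 0.375 CPM, and EV tumours 2 and 3 had 0 reads. FAT3, an atypical cadherin gene, stood at 15.1, 44.2 and 55.6 CPM, against 0.0937, 0.0581 and 0.193 CPM, with a ratio of 334 that was 506.3 without EV tumour 3. CDH4, which encodes R-cadherin, stood at 15.7, 32.9 and 46.5 CPM, against 0.0937, 0.407 and 0.516 CPM. In the list of matrix and integrin genes, 12 of the 50 that did not meet the rule rose and 12 fell. Over all genes tested 9.02% rose and 13.3% fell. Without EV tumour 2, 7 genes of the list fell.

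Placental and testis genes included some of the highest levels. SPANXB1 (chromosome X, 141002594 to 141003706, GRCh38), a sperm protein gene of the cancer-testis class, had the highest level per kilobase of exon, 387 CPM per kb, followed by ALPP at 47.5 and EDN1 at 46.4, while NHS was lowest at 1.89. Its level was 50.7, 218 and 261 CPM, with 2 reads over the EV tumours and a depth-adjusted ratio of 5369 (95% counting interval 1486 to 44340). ALPP, the placental alkaline phosphatase gene, stood at 60.95, 149 and 235 CPM, against 1.08, 0.698 and 1.42 CPM. PLAC8, a small cysteine-rich protein gene first found in placenta, split the tumours. It stood at 172, 219, 235 and 103 CPM in tumours 1, 2, 4 and 6 and at 38.2 and 48.4 CPM in tumours 3 and 5, against 0.328, 0.291 and 0.451 CPM in EV. PSG4, a pregnancy-specific glycoprotein gene, stood at 9.72, 18.7 and 34.2 CPM with 3 reads over the EV tumours, a depth-adjusted ratio of 369 (95% counting interval 126 to 1790). These intervals cover counting error only.

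**Figure D3:**
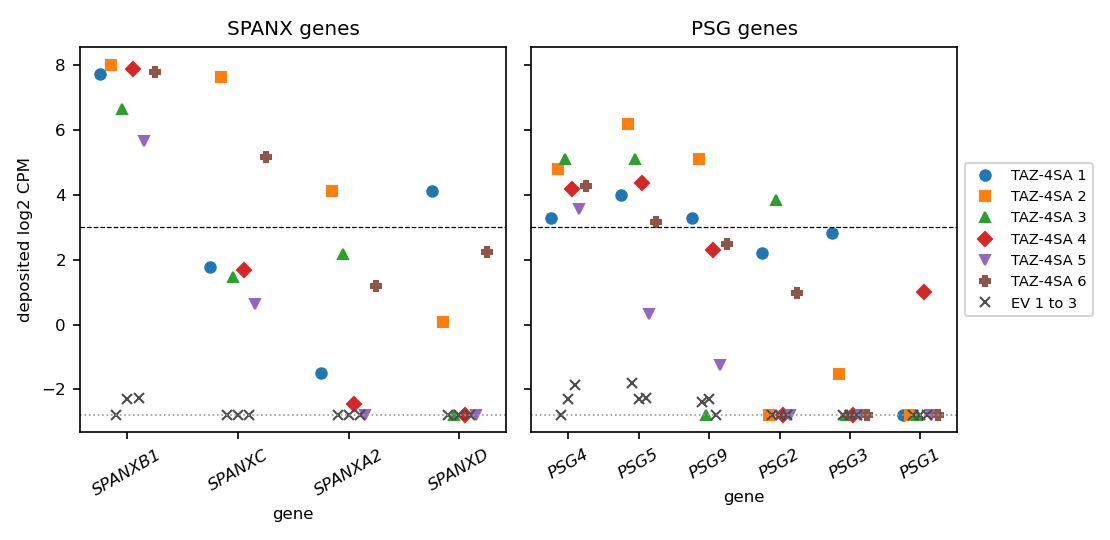
Deposited log2 CPM of SPANX genes (left) and PSG genes (right) in the 6 TAZ-4SA tumours (coloured symbols) and 3 EV tumours (crosses). The dashed line is the minimum of 3 and the dotted line the value of a gene with 0 reads. SPANXB1 and PSG4 alone lie above the minimum in all 6 TAZ-4SA tumours, and their relatives differ from tumour to tumour.

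Relatives of SPANXB1 and PSG4 were on in some tumours only. SPANXC had 0 reads in every EV tumour and ran from 1.40 CPM to 200.8 CPM in TAZ-4SA tumour 2, with a median of 3.16. It passed the limma test (adjusted p = 0.0222), and did not without EV tumour 1, 2 or 3 (limma adjusted p = 0.0928, 0.0939 and 0.0839). Leaving out TAZ-4SA tumour 2 moved its log2 fold change from 5.85 to 4.93. SPANXA2 and SPANXD reached the minimum in 1 tumour each, with highest levels of 17.2 CPM in tumour 2 and 17.2 CPM in tumour 1, and had 0 reads in EV. Next to PSG4, 6166 bases away, PSG5 reached the minimum in 5 of 6 tumours, with a lowest, median and highest level of 1.12, 18.2 and 72.4 CPM. PSG5 passed the limma test (adjusted p = 0.00915) and did not without EV tumour 2 (limma adjusted p = 0.0502). Leaving out TAZ-4SA tumour 5 moved its log2 fold change from 5.98 to 6.68. PSG9 reached the minimum in 2 tumours. The SPANX genes are nearly identical copies on chromosome X and the PSG genes lie in a cluster of close copies on chromosome 19, so reads can be assigned to a relative, and the same holds for ALPP and CD24. In the list of cancer-testis genes without SPANXB1, 2 of 30 tested rose (SPANXC and MAGEA10) and 4 fell, shares close to the 9.02% and 13.3% of all genes tested. Without EV tumour 1, 2 or 3 the number that fell was 1, and 2 fell without TAZ-4SA tumour 3 or 4.

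Signalling and trafficking genes included the highest mean of all. ALPK2 (chromosome 18, 58481247 to 58629091, GRCh38), an atypical alpha-kinase gene, stood at 132, 229.7 and 305 CPM, against 0.422, 0.9303 and 1.23 CPM in EV, and it was the most even of the 38 genes over the TAZ-4SA tumours. MARCHF4, a membrane-bound ubiquitin ligase gene, stood at 34.5, 49.4 and 156 CPM, with 2 EV reads, both in EV tumour 2. RRAD encodes a RAS-like GTPase that restrains voltage-gated calcium channels. It was the least even gene, at 47.0, 9.08, 135, 31.7, 111 and 23.2 CPM in tumours 1 to 6, against 0.281, 0.523 and 1.096 CPM in EV, and its ratio of 94.1 was 148 without EV tumour 3. CAVIN2, a coat protein gene of caveolae, stood at 17.1, 22.9 and 81.3 CPM, against 0.7495, 0.6396 and 0.774 CPM. RAB11FIP1, an effector of endosomal recycling, stood at 18.6, 42.8 and 74.7 CPM. PRKCH, a protein kinase C gene, and GNGT2, a G protein gamma subunit gene, were lower, with means of 25.1 ± 7.12 CPM and 21.2 ± 8.88 CPM.

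Cytoskeletal and related genes lay at middling levels, with means of 46.95 ± 23.96 CPM for CFAP251, a cilium gene, 41.9 ± 15.3 CPM for FILIP1L, a filamin-interacting protein relative, 39.98 ± 20.7 CPM for CRYBG2, a crystallin-domain gene, and 19.6 ± 8.16 CPM for NHS, which regulates actin at the cell edge. In GENCODE the spans of 2 of these genes overlap those of well-expressed neighbours, and overlap of reads was not examined. CFAP251 overlaps PSMD9 on the same strand, which had a mean of 49.2 CPM in the TAZ-4SA group against 47.8 CPM for EV. RefSeq coordinates instead place PSMD9 295 bases from CFAP251. FILIP1L overlaps CMSS1 on the opposite strand, at 57.5 and 30 CPM. The EV means of PSMD9 and CMSS1 were many times those of CFAP251, 1.105 ± 0.404 CPM, and FILIP1L, 1.09 ± 0.5699 CPM. The library kit does not keep the strand, and 21 of the 39 genes overlap a gene on the opposite strand in GENCODE, so their reads cannot be separated from such partners by strand.

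Transcription factor genes numbered 3. ZNF699 (chromosome 19, 9291140 to 9309838, GRCh38), a zinc finger gene, was the highest, at 63.6, 157 and 187 CPM, against 0.375, 0.523 and 0.903 CPM in EV. ZNF430, of the same class, stood at 27.1, 43.5 and 70.3 CPM, against 1.41, 1.34 and 0.903 CPM. CREB3L1, a membrane-anchored factor released by proteolysis, stood at 19.98, 61.7 and 93.05 CPM, against 0.468, 0.6396 and 1.16 CPM, and was lowest in tumour 2. A list of TEAD factors, their cofactors (YAP1 and VGLL genes) and AP-1 factors held no gene that met the rule. In the limma fit 9.02% of all genes tested rose and 13.3% fell. Of the 19 genes tested from this list 6 rose (TEAD1, the cofactor VGLL3, FOSL1, FOSL2, JUN and ATF3) and 0 fell. At an unadjusted p under 0.05, 1 fell, and limma-voom called 5 higher and 0 lower, without VGLL3 (adjusted p = 0.117). TEAD1 rose from 38.8 ± 9.94 to 358 ± 47.6 CPM, FOSL1 from 59.4 ± 53.8 to 415 ± 199.8 CPM and FOSL2 from 34.5 ± 18.9 to 369.5 ± 189.8 CPM. The rise of JUN was not called without EV tumour 1 or 2 (limma adjusted p = 0.129 and 0.103), nor without TAZ-4SA tumour 1 (0.0517). Leaving out EV tumour 3 moved its log2 fold change from 1.73 to 2.45. That of FOSL1 moved from 2.98 to 3.68 and that of ATF3 from 3.34 to 4.35 without EV tumour 3.

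Long non-coding RNAs numbered 6. LINC00707 was the highest, at 38.3, 77.5 and 183 CPM, against 0.89, 0.581 and 0.5803 CPM in EV. LINC00452 stood at 19.9, 55.7 and 101 CPM, with a ratio of 328 that was 688 without EV tumour 1. LINC02582 stood at 14.3, 18.2 and 60.2 CPM, with 6 reads over the EV tumours and a ratio of 215 that was 495 without EV tumour 3. LINC00664 and LINC01164 had means of 38.4 ± 14.2 CPM and 25.2 ± 7.04 CPM. LINC03033 (chromosome 14, 61570540 to 61654713, GRCh38) had 0 reads in all 3 EV tumours. Against a floor of 3 reads per EV library, 0.169 CPM on average, its mean of 19.3 ± 18.6 CPM was at least 114-fold higher, a bound that covers counting error only. Its level in tumour 2 was 56.7 CPM and in the other 5 tumours 8.12 to 16.5 CPM. LINC03033 lies just inside the TAZ-4SA minimum, and it was lost from the set under median-of-ratios scaling.

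Within the TAZ-4SA group the switched-on genes varied as other genes of their level did. The median SD of log2 CPM over the 6 tumours was 0.681 for the 39 genes, and 0.685 for the 5510 other genes with at least the minimum in every TAZ-4SA tumour and a mean in the same range. Over the 38 genes, the highest tumour exceeded the lowest by 2.12-fold for PRKCH up to 14.9-fold for RRAD, with a median of 3.54-fold, and 15 genes varied by more than 4-fold. The most even of them were ALPK2, PRKCH, LINC01164, FLG and LINC00664, with SDs of 0.413, 0.423, 0.427, 0.491 and 0.523 on the log2 scale. RRAD (1.45), DMBT1, PLAC8, S1PR1 and LINC03033 were the least even. Tumour 3 held the highest value for 15 genes (38.5%, against 20.3% of the 5510 others) and tumour 2 for 14 (35.9%, against 21.3%). Tumours 5 and 6 held it for 1 gene each (2.56%, against 16.9% for tumour 5 and 8.24% for tumour 6). Tumour 2 also held the lowest value for 11 genes (28.2%, against 24.7%), as did tumour 5 (28.2%, against 17.6%). Tumour 2 had the most genes at 0 reads and tumour 5 was among the least deeply sequenced, and the part of either in these shares was not tested.

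**Figure D4:**
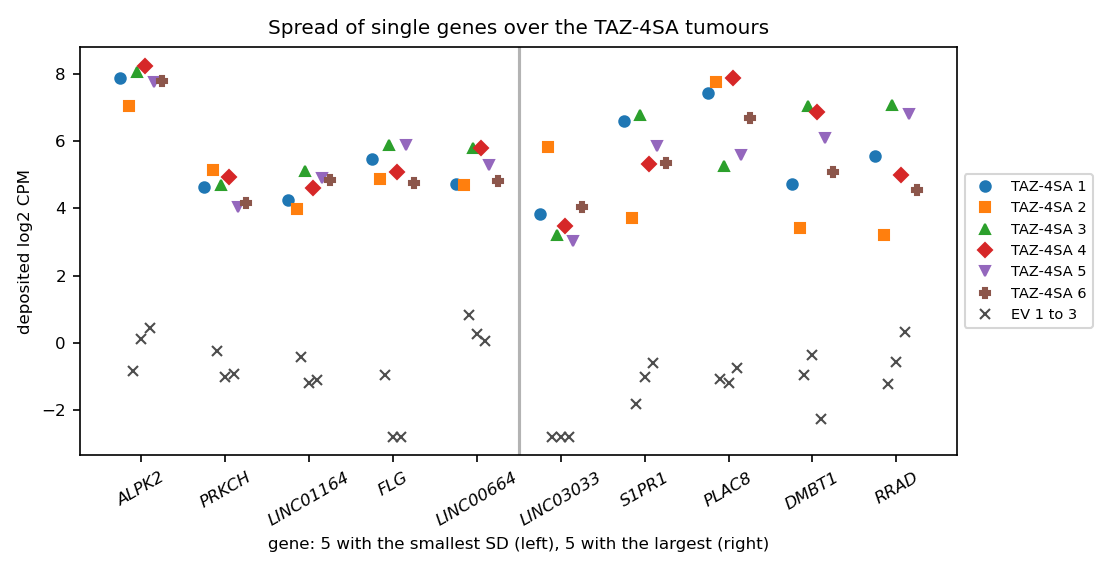
Deposited log2 CPM of the 5 genes with the smallest SD over the TAZ-4SA tumours (left of the line) and the 5 with the largest (right), out of the 38, with a symbol for each TAZ-4SA tumour and crosses for the 3 EV tumours. ALPK2 spans a 2.31-fold range of CPM and RRAD a 14.9-fold range, and tumour 2 is the lowest for S1PR1, DMBT1 and RRAD and the highest for LINC03033.

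The genes were spread over 19 chromosomes, with at most 5 on any 1 of them (chromosome 1). A single pair lay within 200 kb of each other, PRKCH and LINC03033 on chromosome 14, 19564 bases apart. PRKCH was highest in tumour 2 at 35.0 CPM, as was LINC03033. To see whether whole regions moved, the nearest tested gene lying beyond either end of each switched-on gene was read from the same fit. CMSS1, which overlaps FILIP1L, was not among them. The gaps had a median of 78080 bases and ran up to 2001769 bases, between FAT3 and CHORDC1, so some flanking genes lay far off. Of 77 such flanking genes that did not meet the rule, 10 rose (13%, against 9.02% of all genes tested) and 5 fell (6.49%, against 13.3%), and their median log2 fold change was 0.12, against -0.85 over all genes. Without EV tumour 2 the flanking genes that rose numbered 6, and those that fell 2 without EV tumour 1, 2 or 3, 3 without TAZ-4SA tumour 1 and 9 without TAZ-4SA tumour 5. Flanking genes were picked for their place, not their change.

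**Figure D5:**
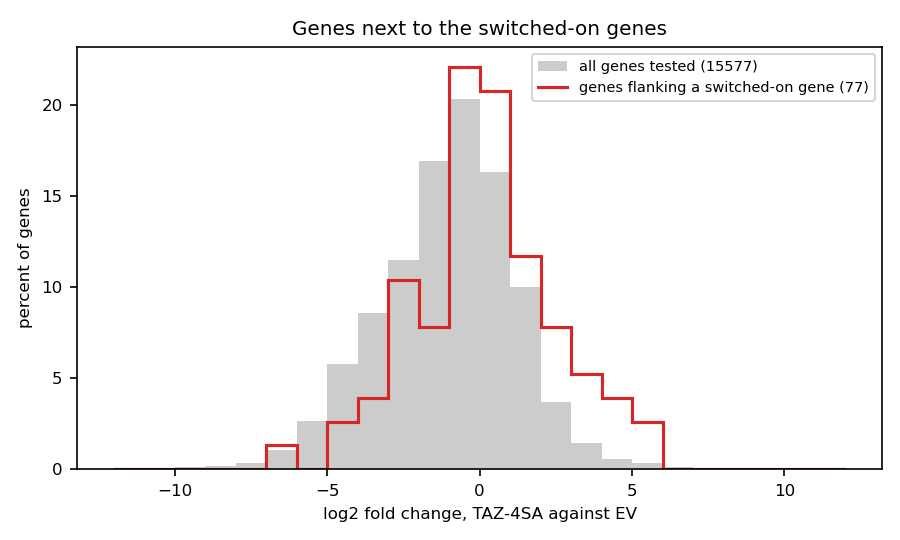
Distribution of the log2 fold change of TAZ-4SA against EV (horizontal axis) as a percentage of genes (vertical axis), for the 77 genes flanking a switched-on gene, at any distance (red line), and all 15578 genes tested (grey). The flanking genes have a median of 0.12 and all genes a median of -0.85.

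The largest rise beside a switched-on gene outside the PSG cluster was that of ZNF714, a zinc finger gene 22153 bases from ZNF430 on chromosome 19, from 3.86 ± 1.61 CPM (SD, n = 3) to 242 ± 76.05 CPM (SD, n = 6; log2 fold change 5.94, limma adjusted p = 1.488e-06). ZNF493, also a zinc finger gene on chromosome 19 and next to LINC00664, rose from 4.505 ± 1.001 to 45.8 ± 26.9 CPM. Both neighbours of CCBE1 rose: LMAN1, a cargo receptor of the early secretory pathway, from 56.9 ± 7.29 to 224 ± 46.0 CPM and PMAIP1, which encodes the pro-apoptotic protein NOXA, from 11.0 ± 8.04 to 132 ± 67.8 CPM. NABP1, next to CAVIN2, rose from 10.2 ± 4.23 to 81.0 ± 34.4 CPM, and SCML1, 1134 bases from NHS, from 5.41 ± 2.14 to 46.7 ± 18.6 CPM. The rise of PMAIP1 was not called by limma-voom (adjusted p = 0.0802), nor that of ZNF493 without TAZ-4SA tumours 2, 3 and 4 (limma adjusted p = 0.0556). The rise of NEDD4L beside ALPK2 was not called without EV tumour 1 or 2. Those of TBC1D23, 146491 bases from FILIP1L, and SPCS3, 351293 bases from VEGFC, were lost without any 1 of the EV tumours. Gene families with close copies, such as the zinc finger genes of chromosome 19, can share reads.

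The other TAZ target genes were read from a list on which no switched-on gene stands. Of 24 established YAP and TAZ target genes tested, 17 rose, 0 fell and 7 were not called (limma, adjusted over all genes), with 0 falling at an unadjusted p under 0.05, and limma-voom called 17 higher and 1 lower. Leaving out ANKRD1, which met both thresholds, 16 of 23 rose, with a median log2 fold change of 2.61. ANKRD1 was the only one of the 24 under the EV limit. CRIM1, a transmembrane protein gene that binds bone morphogenetic proteins, rose from 14.5 ± 3.93 to 734 ± 220.2 CPM, F3, which encodes tissue factor, from 4.17 ± 0.769 to 206 ± 78.3 CPM, and the kinase gene NUAK2 from 7.84 ± 5.89 to 164 ± 89.4 CPM. The tested lists of keratins, serpins, contractile genes, channels and transporters, and homeobox and developmental factors held no switched-on gene. Over all genes tested 9.02% rose and 13.3% fell. Of 14 keratin genes 3 rose and 0 fell in the limma fit, 0 fell at an unadjusted p under 0.05, and limma-voom called 0 lower. The keratin list includes KRT80 and KRT81, which the rule named as exceptions. The rise of KRT18 was not called without EV tumour 1 or 2 (limma adjusted p = 0.118 and 0.1002). Of 16 serpin genes 2 rose and 7 fell, and of 31 contractile genes 7 rose and 5 fell, with 3 falling without EV tumour 2. Of 47 channel and transporter genes 3 rose and 3 fell, with 1 falling without EV tumour 1, 2 or 3 and 5 without TAZ-4SA tumour 1 or 5. Of 58 homeobox and developmental factor genes 3 rose and 18 fell, with 5 rising without TAZ-4SA tumour 2 and 11 falling without EV tumour 2.

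The receptor and protease lists held genes that rose from a measurable EV level beside S1PR1 and ADAMTS6. The counts of the lists below stand beside 9.02% of all genes tested that rose and 13.3% that fell. In the list of G protein-coupled receptors and their regulators, leaving S1PR1 out, 6 of 30 rose and 3 fell, with 0, 0 and 1 falling without EV tumour 1, 2 and 3. The thrombin receptor gene F2R rose from 15.4 ± 1.12 to 548 ± 77.2 CPM, its relative F2RL2 from 1.896 ± 0.314 to 147 ± 33.5 CPM, the chemokine-scavenging receptor gene ACKR3 from 2.46 ± 0.344 to 116 ± 39.1 CPM and GPRC5A, an orphan receptor gene, from 2.31 ± 0.806 to 88.4 ± 58.9 CPM. EDNRB, a receptor for the endothelin that EDN1 encodes, was named after its values were seen: it fell from 50.9 ± 12.1 to 1.41 ± 1.71 CPM (limma adjusted p = 0.0108) and was not called without EV tumour 1 or 2 (limma adjusted p = 0.0619 and 0.0571). EDNRA, the other endothelin receptor gene, had a mean of 1.14 ± 0.438 CPM in EV and a median of 0 CPM in TAZ-4SA, under the level tested. Among matrix proteases other than ADAMTS6, 4 of 18 rose and 2 fell, and 8 of 19 with ADAMTS6 rose without TAZ-4SA tumour 2. ADAMTS1 rose from 48.6 ± 8.54 to 336 ± 81.6 CPM and ADAMTS5 from 3.52 ± 0.785 to 108 ± 26.8 CPM. In the list of epidermal differentiation and desmosome genes, FLG aside, 1 of 16 rose and 3 fell. The 1 that rose, the desmosomal cadherin gene DSG2, was not called without EV tumour 1 or 2, and 0 fell without EV tumour 1, 2 or 3.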

How the data were processed

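Total RNA from 9 intracranial tumours was made into libraries with SMART-Seq and Nextera XT kits, per the labels' protocols, a chemistry that does not keep the strand. HISAT2, edgeR and the build GRCh38 stand in the submitters' processing notes, with neither role nor version. How reads were counted, and whether mouse reads were set apart, is not given in the sources used here. Log2 CPM of 18364 genes was deposited by the authors, a unit read from the values. Their lowest value, -2.786 in every tumour, is a constant of 0.145 CPM. It was removed to give CPM, and 100% of values under 5000 reads were then whole reads within 0.1 read. The number of reads sets the precision, and floors and intervals cover counting error only.

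The test was limma 3.58.1 (R 4.3.3) on the deposited log2 values, with trend and robust empirical Bayes, two-sided with Benjamini-Hochberg adjustment at 0.05. It covered the 15578 genes whose mean over the 9 tumours, with the constant still included, reached 1 CPM. The filter at a mean of 10 CPM also included the constant. Fold changes include the constant and are positive where TAZ-4SA is higher. The script was tested on simulated data. The labels give both groups replicate numbers without saying that they pair tumours. Members and lists were chosen with earlier results of these data known. Genes named were the 20 switched-on genes with the highest mean, the 5 most and 5 least even, those in a list, near another or near a threshold, and up to 4 called genes per list with the highest TAZ-4SA mean. Single values of 1 switched-on gene are not reported here; it stays in the counts. Other switched-on genes, flanking genes and the genes said to be so were named after their values were seen. Coordinates come from RefSeq (18136 identifiers matched) and overlaps and exon lengths from GENCODE. Alternatives were other thresholds, pseudocounts, scalings and filters, the replicate block, each tumour left out and, added after seeing the data, limma-voom and groups of tumours left out. A planned edgeR fit was not run, since the deposited unit is log2.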

Additional observations from a re-analysis of the deposited data

Results flagged for a closer look

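In 2 of the 39 switched-on genes a single TAZ-4SA tumour stood apart from the other 5. The measure was the gap to its neighbour as a share of the whole range, both taken on the log2 scale and not in CPM. Chance alone flags about 1 in 20 genes on this measure. LINC03033 reached 56.7 CPM in TAZ-4SA tumour 2, where the others lay between 8.12 and 16.5 CPM (gap over range 0.637). NRG1 reached 153 CPM in the same tumour, where the others lay between 53.1 and 72.0 CPM (0.712).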

How the results depend on the processing

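The number of switched-on genes, 39, was 16 with an EV limit of 0, 80 with a limit of 2, 24 with a TAZ-4SA minimum of 4, 49 with a minimum of 2 and 38 under median-of-ratios scaling, which lost LINC03033. Leaving out 1 tumour gave 39 to 49 genes. Leaving out TAZ-4SA tumours 2, 3 and 4, chosen after seeing the data, gave 68; leaving tumours out of a rule that every tumour must meet can only add genes. Over all genes, 1405 were called higher and 2079 lower. Leaving out 1 tumour gave 799 to 1685 higher and 852 to 2688 lower, with the lowest counts without an EV tumour: 827 higher and 872 lower without EV 1, 799 and 852 without EV 2, and 990 lower without EV 3. Genes called lower numbered 3384 with no filter, 967 with a filter at a mean of 10 CPM, which tests fewer genes, and 3646 with limma-voom. The YAP and TAZ target genes called higher numbered 14 to 18 under every alternative run. Of 702 log2 differences of the 39 genes under 18 alternatives, 651 moved by less than 1 SD over the TAZ-4SA tumours and 51 by more; their direction was fixed by the choice of genes. The EV levels rest on few reads per gene, so the ratios are loose.

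Tumours with the same replicate number did not deviate together (correlations of -0.000583, -0.0322 and -0.00873 for numbers 1 to 3), so the numbers were not taken to pair them. With the replicate block, 604 genes were called higher and 2057 lower, and 14 YAP and TAZ target genes were called higher. TAZ-4SA tumours whose number no EV tumour shares add nothing to the group difference in that fit. Its counts therefore reflect fewer tumours as well as the block. The causes of the other moves were not tested. edgeR was not run.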
